A study of Saccharomyces cerevisiae with 4 samples.

Results

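Glycerol metabolism was followed through 10 genes of Saccharomyces cerevisiae, namely GCY1, DAK1, GPD1, GPD2, GPP1, GPP2, GUT1, GUT2, STL1 and FPS1. They cover the synthesis of glycerol, its use through glycerol kinase, the dihydroxyacetone route that holds the Gal4 target GCY1, and the passage of glycerol across the plasma membrane. A gene was included through the probe sets that the array's annotation assigns to its symbol alone. Each of the 10 genes had 1 such probe set, among 6504 probe sets that name 1 gene, and all 10 were among the 7302 probe sets bright enough to be tested. The strain was ATCC 4126, grown on YP with either galactose or glucose, and RNA of whole cultures was taken at an optical density of 1.0. There were 2 arrays per medium. The labels give those from galactose the letters B and C and those from glucose the letters A and B, and they name no mutation or further treatment in either medium. Nothing says whether the letters stand for separate cultures, so p-values measure only the spread between these arrays, which may be technical.

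Yeast makes glycerol from the glycolytic intermediate dihydroxyacetone phosphate, which a glycerol 3-phosphate dehydrogenase reduces and a phosphatase then dephosphorylates, and the route serves both to reoxidise NADH and to build up glycerol as an osmolyte. Glycerol is taken back into metabolism either by glycerol kinase and a mitochondrial glycerol 3-phosphate dehydrogenase, or by oxidation to dihydroxyacetone followed by dihydroxyacetone kinase. The genes of the kinase route and of active glycerol uptake are known to be repressed by glucose, and GPD1, GPP2 and STL1 are known targets of the HOG pathway, the MAP kinase cascade that answers high osmolarity.

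The values were intensities summarised by the authors, and folds are differences of mean log2 intensities. The array medians ran from 108 to 117, and log2 values over all probe sets correlated at 0.985 between the glucose arrays and at 0.971 between the galactose arrays. The galactokinase gene GAL1, a check of the labels, stood at 9927 and 8965 in galactose and at 36.2 and 40.4 in glucose. The intensity of 1 probe set cannot be set against that of another, so levels are compared only within a gene.

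**Figure D1:**
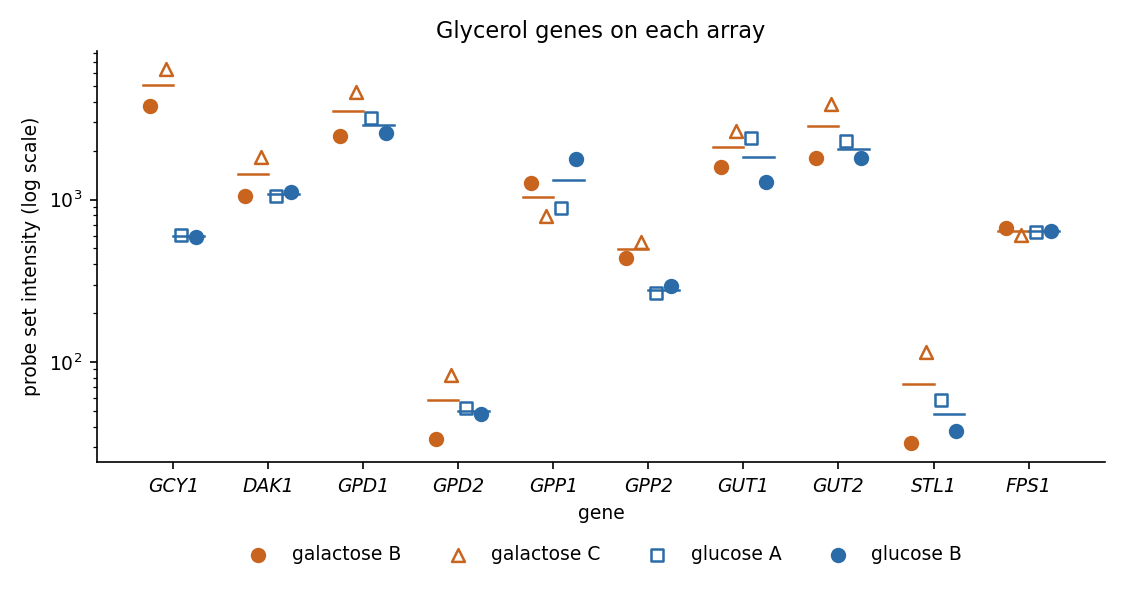
Probe set intensity (log scale) of the 10 glycerol genes on each of the 4 arrays, with a short line at the mean of each medium. GCY1 stood at 3784 and 6343 in galactose against 602 and 591 in glucose, GPP2 was the other gene with no overlap between the media, and levels should be compared within a gene only.

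Of the 10 genes, GCY1 alone passed the test between the media. GCY1 (YOR120W) encodes an aldo-keto reductase that acts as a glycerol dehydrogenase at the entry of the dihydroxyacetone route. Its intensity was 3784 and 6343 on galactose arrays B and C, a mean of 5064 ± 1810.0 (SD, n = 2), and 602 and 591 on glucose arrays A and B, a mean of 597 ± 7.81 (SD, n = 2). The media did not overlap, and the glucose arrays lay close together while the galactose arrays lay apart. It was 8.21-fold higher in galactose with a 95% interval from 4.64 to 14.5 (log2 difference 3.04, adjusted p = 0.0451, limma with the Benjamini-Hochberg adjustment over all 7302 probe sets). Ordered from the highest difference down, its probe set stood at place 24 of the 7302. In RNA of whole cultures, more cells expressing a gene and more RNA per cell cannot be told apart. The call lay close to the threshold of 0.05: adjusted p ran from 0.0267 to 0.247 over 12 other settings of the fit, 5 of which kept the call, and it was lost without any 1 of the 4 arrays, where the log2 difference ran from 2.67 to 3.41.

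Over all tested probe sets 0.794% were called higher in galactose and 0.0411% were called lower, and among the 10 genes 1 was called higher and 0 lower. That share includes probe sets of Ty retrotransposons: 58 probe sets were called higher, and 7 in a new fit without those of Ty. GCY1, not a Ty gene, also lost its call in that fit (adjusted p = 0.0936, limma). The drop is therefore not a count of Ty probe sets. In a fit of only the 5982 probe sets that name 1 gene, 5 were called higher and 1 lower. None of the 10 genes was called in either of these 2 settings. At an unadjusted p under 0.05 there were 2 of the 10, GCY1 and GPP2, against 8.61% of all tested probe sets. The galactose arrays lay wholly above the glucose arrays for the same 2 genes, against 17% of all tested probe sets. They lay wholly below them for 0 of the 10, against 22.1%. The median log2 difference of the 10 genes was 0.30, against -0.01 over all tested probe sets.

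**Figure D2:**
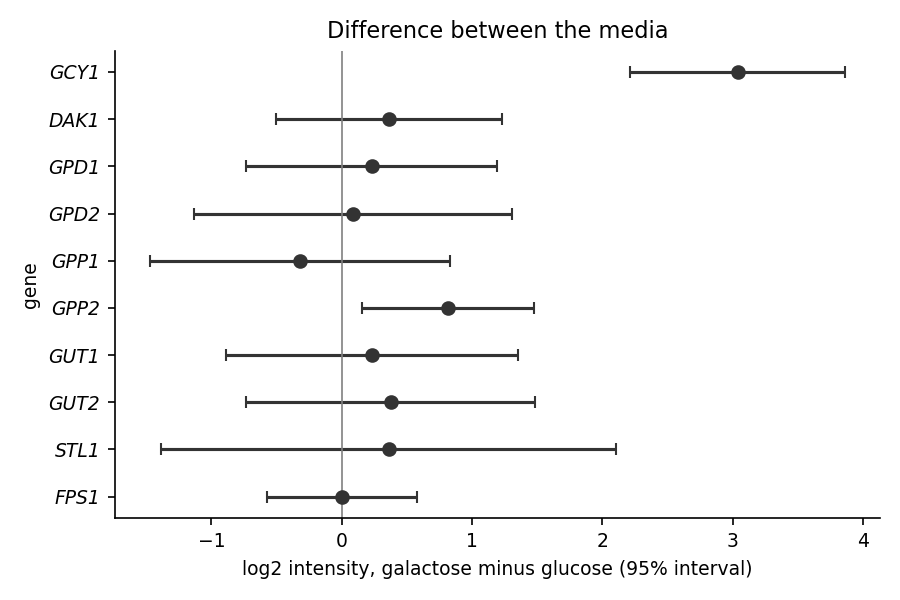
Log2 intensity in galactose minus glucose for the 10 glycerol genes (points), with 95% intervals from limma (bars, 2 arrays per medium). GCY1 lies at 3.04 and GPP2 at 0.81, and the intervals of the other genes include 0.

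DAK1 (YML070W), which encodes the dihydroxyacetone kinase that follows GCY1 in the route, did not pass with it. It stood at 1058 and 1834 on galactose arrays B and C and at 1056 and 1110.4 on glucose arrays A and B. Galactose C alone lay above the other 3 arrays, which differed little among themselves. The fold was 1.29 with an interval from 0.706 to 2.34 (adjusted p = 0.783, limma), and without galactose C the log2 difference of 0.36 turned to -0.034. The ratio of GCY1 to DAK1 on an array was 6.39-fold higher in galactose than in glucose, and the 2 media did not overlap in it. Of 5 such ratios computed between related genes, this and 2 more reached a two-sided exact permutation p of 0.333, the smallest that 4 arrays allow (0.556 after adjustment over the 5). The second dihydroxyacetone kinase gene, DAK2, stood at 6.90 at most over the 4 arrays, under the floor of 18.5 below which probe sets were not compared.

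Among the genes of glycerol synthesis, neither dehydrogenase gene passed. GPD1 (YDL022W), the NAD-dependent glycerol 3-phosphate dehydrogenase gene known for its induction by osmotic stress, stood at 2458 and 4602 on galactose B and C and at 3202 and 2567 on glucose A and B. Both glucose arrays lay between the galactose arrays. Its fold was 1.17, with an interval from 0.602 to 2.29 (adjusted p = 0.884, limma). GPD2 (YOL059W), the isoenzyme gene known for its induction without oxygen, was dim, at 33.4 and 82.8 in galactose and 51.8 and 47.5 in glucose. Here too the glucose values lay between the galactose values. Its fold was 1.06, with an interval from 0.456 to 2.47 (adjusted p = 0.970, limma). The ratio of GPD1 to GPD2 differed by a factor of 1.11 between the media, with the arrays overlapping (exact permutation p = 0.667).

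The phosphatase genes, which encode the last step of glycerol synthesis, did not pass either. GPP2 (YER062C), the osmotically induced isoform, stood at 439 and 547 on galactose B and C and at 266 and 292 on glucose A and B. The media did not overlap, and the arrays of each medium lay close together. Its 1.76-fold higher level in galactose had an interval from 1.11 to 2.78 and did not pass over all probe sets (adjusted p = 0.482, limma). GPP1 (YIL053W), the isoform known for growth without oxygen, stood at 1267 and 795 in galactose and at 892 and 1770 in glucose. Its media overlapped, with galactose C the lowest array and glucose B the highest. GPP1 was 1.25-fold lower in galactose, and the interval of the fold of galactose over glucose ran from 0.360 to 1.77 (adjusted p = 0.863, limma). Its log2 difference of -0.32 turned to 0.013 when galactose C was left out and to 0.17 when glucose B was. The ratio of GPP2 to GPP1 was 2.20-fold higher in galactose and did not overlap between the media (exact permutation p = 0.333, the smallest possible). The enzymes are close relatives, and whether a probe set of either gene also reads RNA of the other was not tested.

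The genes of the glycerol kinase route showed overlapping media. GUT1 (YHL032C), the glycerol kinase gene, stood at 1591 and 2659 on galactose B and C and at 2391 and 1282 on glucose A and B. In both media 1 array was high and the other low, with galactose C and glucose A the high ones. The fold was 1.18, with an interval from 0.540 to 2.55 (adjusted p = 0.904, limma). GUT2 (YIL155C), which encodes the mitochondrial glycerol 3-phosphate dehydrogenase, stood at 1804 and 3870 in galactose and at 2302 and 1804 in glucose. Galactose B and glucose B were level with each other here, and galactose C was the highest array. Its fold was 1.30, with an interval from 0.6002 to 2.80 (adjusted p = 0.832, limma).

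The membrane genes differed in how steady they were. STL1 (YDR536W), the glycerol and proton symporter gene, was dim, at 31.5 and 115 on galactose B and C and at 58.5 and 37.5 on glucose A and B. Galactose B was its lowest array and galactose C its highest. The fold of 1.28 had an interval from 0.382 to 4.31 (adjusted p = 0.905, limma), the widest of the 10 genes on the log2 scale. FPS1 (YLL043W), the gene of the glycerol channel that is closed when cells must hold glycerol, stood at 671 and 609 in galactose and at 636 and 641 in glucose. All 4 arrays lay within a narrow band. Its fold was 1.00, with an interval from 0.672 to 1.49 (adjusted p = 0.999, limma), the narrowest interval of the 10. Regulation of the Fps1 channel itself, which is known to act on the protein, is not seen by an RNA measurement.

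The arrays of 1 medium differed from each other for most of the 10 genes, and galactose C was usually the high one in galactose. Galactose C lay above galactose B for 8 of the 10, against 46.3% of all tested probe sets, with a median log2 difference of 0.77 against -0.02. Galactose C was at least 2-fold above galactose B for 3 of the 10, against 5.94% of all tested probe sets. The count was 2 after quantile normalization and 4 with the arrays at a common median. The 3 were STL1 (3.63-fold), GPD2 (2.47-fold) and GUT2 (2.15-fold). GPD1 (1.87-fold), DAK1 (1.73-fold), GCY1 (1.68-fold) and GUT1 (1.67-fold) followed. No gene of the 10 was at least 2-fold below, where 6.78% of all tested probe sets were, and GPP1 was the lowest at 1.59-fold below. With 1 array on each side these are folds with no test, and no cause of the difference between the arrays was tested.

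The glucose arrays were closer together. Glucose A lay above glucose B for 6 of the 10 genes, against 44.2% of all tested probe sets, with a median log2 difference of 0.08 against -0.03. At least 2-fold differences occurred in 0 of the 10, where 3.27% of all tested probe sets were at least 2-fold above and 1.01% at least 2-fold below. GUT1 came nearest on the high side, at 1.87-fold above glucose B, followed by STL1 at 1.56-fold. GPP1 was 1.98-fold lower on glucose A than on glucose B. The 6 genes that were higher on glucose A, namely GCY1, GPD1, GPD2, GUT1, GUT2 and STL1, were also higher on galactose C than on galactose B. GPP1 and FPS1 were lower on both. FPS1 (1.01-fold lower on glucose A) and GCY1 (1.02-fold higher) were nearly level between the glucose arrays. With the arrays at a common median, 7 of the 10 were higher on glucose A. DAK1 and GPP2 were higher on galactose C but not on glucose A. Across the 10 genes the difference between the galactose arrays and that between the glucose arrays correlated at r = 0.75, and over all 7302 tested probe sets at r = 0.50. These are descriptions across genes, which are not independent replicates, and the points of each comparison share the same pair of arrays.

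**Figure D3:**
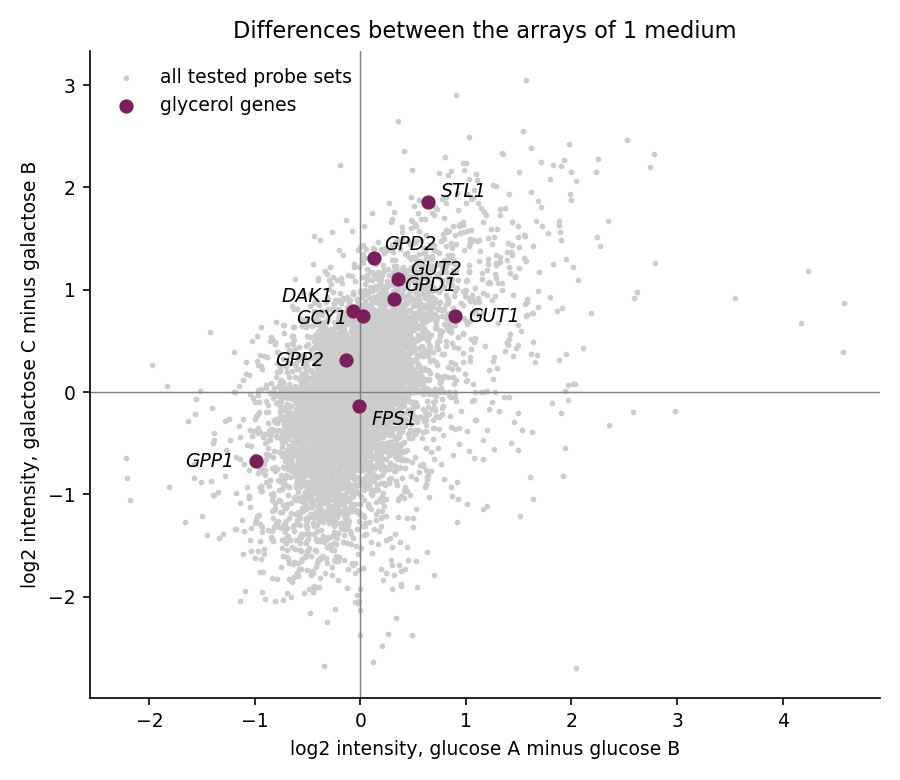
Log2 intensity on galactose C minus galactose B (vertical) against glucose A minus glucose B (horizontal) for the 10 glycerol genes (large points) and all 7302 tested probe sets (small points). STL1 lies highest among the 10 at 1.86 on the vertical axis, GPP1 lies low on both axes, and FPS1 sits near the origin.

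The differences between the media were smaller than the larger difference within a medium for all of the genes but GCY1 and GPP2. Without galactose C the log2 difference turned from positive to negative for DAK1, GPD1, GPD2, GUT1, GUT2 and STL1, reaching -0.57 for both GPD2 and STL1. GUT1 also changed sign without glucose B, to -0.22. GCY1 and GPP2 kept their sign without any 1 array, GPP2 at log2 differences from 0.66 to 0.97.

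GCY1 differed from other Gal4 targets in where it stood within galactose. Of 10 other genes bound by this activator, 6 passed between the media, all higher in galactose. The galactose arrays lay wholly above the glucose arrays for 9 of the 10, against 17% of all tested probe sets. MTH1 was the exception, at 855 and 710 in galactose and at 1364 and 849 in glucose (1.38-fold lower, adjusted p = 0.738, limma). GAL1 was 247-fold, GAL10 126-fold and GAL7 at least 271-fold higher, the last set against the floor because both glucose arrays lay under it, and these encode the enzymes that turn galactose into glucose 1-phosphate. GAL2, the galactose permease gene, was 406-fold higher (adjusted p = 0.00192, limma), GAL3 12.7-fold higher (adjusted p = 0.0469) and GAL80 7.26-fold higher (adjusted p = 0.0433). These calls share the limits of that of GCY1: over all probe sets 58 were called higher, but 5 with 1 probe set per gene, 4 with all probe sets tested and 0 without any 1 array, so the 6 do not all hold in those settings. The ratio of galactose C to galactose B was 1.68 for GCY1. For the other 10 it ran from 0.467 for FUR4, the uracil permease gene, to 1.16 for GAL2, with 2 of the 10 higher on galactose C. GAL80 had a ratio of 0.686 and GAL3 one of 0.634. These are single pairs of arrays, and the difference between GCY1 and the other targets was not tested.

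**Figure D4:**
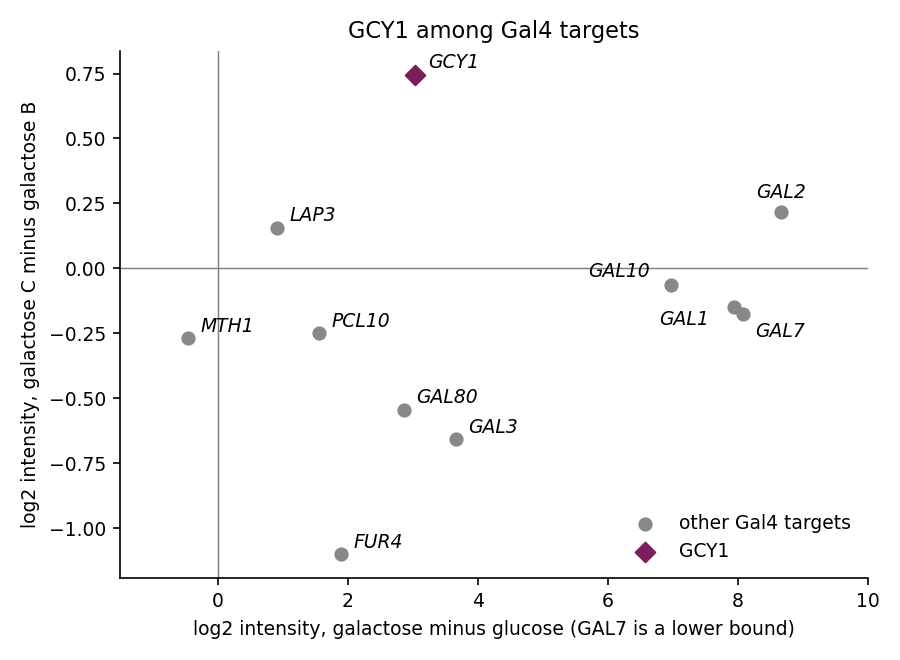
Log2 intensity on galactose C minus galactose B (vertical) against galactose minus glucose (horizontal) for GCY1 (diamond) and 10 other Gal4 targets (circles). GCY1 lies at 0.75 on the vertical axis, above all 10 others, whose highest is GAL2 with a ratio of 1.16.

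The probe sets whose levels over the 4 arrays were most like those of GCY1 were sought among 5627 that name 1 gene and lie above the floor on every array, by the Euclidean distance of log2 values centred on each probe set's mean. The nearest 3 list genes of Ty retrotransposons, whose copies cannot be told apart on the array, namely YDR261W-B (distance 0.50), YDR098C-B (0.57) and YBL100W-B (0.59). IZH4, a membrane protein gene linked to zinc homeostasis, came next at 0.60, with 122 and 242 in galactose and 33.5 and 21.0 in glucose. ARR2, the arsenate reductase gene, followed at 0.84 and GAL80 at 0.93. IZH4 was 6.49-fold and ARR2 4.63-fold higher in galactose without passing (adjusted p = 0.125 and 0.139, limma). Of the 10 glycerol genes other than GCY1, 0 were among these 6.

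The aldo-keto reductase family, to which GCY1 belongs, gave no further call. Of 5 tested genes outside the 10, the paralogue YPR1 and the relatives GRE3, ARA1, YDL124W and YJR096W, 0 passed in either direction (limma, and 0 at an unadjusted p under 0.05). YPR1 stood at 297 and 415 in galactose and at 261 and 336 in glucose, a 1.19-fold difference with overlapping media (adjusted p = 0.846). The ratio of GCY1 to YPR1 was 6.93-fold higher in galactose (exact permutation p = 0.333, the smallest possible). It, too, carries the difference of GCY1 itself. GRE3, an aldose reductase gene, stood at 1435 and 3669 in galactose and at 1429 and 1405 in glucose (1.62-fold, adjusted p = 0.743). YJR096W, which encodes a reductase of the same family, stood at 979 and 3436 in galactose and at 1521 and 935 in glucose (1.54-fold, adjusted p = 0.818). Both had galactose C as the highest array, 2.56-fold and 3.51-fold above galactose B, as DAK1 did at 1.73-fold. All 5 genes were higher on galactose C than on galactose B, against 46.3% of all tested probe sets, with a median log2 difference of 0.83.

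Other genes that handle glycerol or glycerol 3-phosphate, from enzymes to channel regulators and transcription factors, also gave no call. Of 17 tested, 0 passed (limma, 1 at an unadjusted p under 0.05), and the median log2 difference was 0.05. The galactose arrays lay wholly above the glucose arrays for 2 and wholly below for 3, against 17% and 22.1% of all tested probe sets. AQY3, an aquaporin family gene, had the largest difference among those above the floor on all arrays, at 73.7 and 157 in galactose and 315 and 166 in glucose (2.13-fold lower in galactose, adjusted p = 0.633). RSF1, a regulator of respiratory growth, stood at 80.7 and 128 in galactose and at 71.0 and 58.8 in glucose (1.57-fold higher, adjusted p = 0.633). TPI1, the triosephosphate isomerase gene that makes or uses the substrate of GPD1, stood at 11862 and 11538 against 11052 and 10587 (1.08-fold, adjusted p = 0.892). NDE2, an external mitochondrial NADH dehydrogenase gene named here after its values were seen, followed GUT1 in its array order, at 878 and 2123 in galactose and at 1743 and 698 in glucose.

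The HOG pathway and its wider targets were set beside the members that it is known to induce. Of 22 HOG pathway genes, 0 passed (limma, 0 at an unadjusted p under 0.05), and their median log2 differences were 0.06 between the media, -0.05 between the galactose arrays and -0.01 between the glucose arrays. MSB2, a mucin at the head of the pathway, stood at 1616 and 1262 in galactose and at 1082 and 644 in glucose (1.71-fold, adjusted p = 0.592). SMP1, a transcription factor gene of the pathway, was 1.40-fold lower (adjusted p = 0.769). Of 8 osmostress-responsive genes tested, 0 passed (limma, 0 at an unadjusted p under 0.05). All 8 were higher on galactose C than on galactose B, 6 of them by at least 2-fold, against 46.3% and 5.94% of all tested probe sets. The median log2 difference of the 8 genes was 1.75 between the galactose arrays and 0.56 between the glucose arrays. CTT1, the cytosolic catalase gene, stood at 1543 and 3960.0 in galactose and at 1877 and 1232 in glucose (1.63-fold, adjusted p = 0.761). GRE1, a hydrophilin gene, stood at 267 and 1471 in galactose and at 2361 and 410 in glucose (1.57-fold lower in galactose, adjusted p = 0.903). Galactose C was the highest array for STL1, GPD1 and GPP2 and lay above galactose B for these 8 genes. GCY1, DAK1, GPD2, GUT1 and GUT2 also had galactose C as their highest array. A part of the HOG pathway in this order was not tested. The part of galactose C in the differences between the media was not tested.

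Glucose-repressed genes for the use of other carbon sources, the group with which GUT1, GUT2 and STL1 share their known repression, lay higher on glucose A than on glucose B. Of 9 tested, 0 passed (limma, 1 at an unadjusted p under 0.05). All 9 were higher on glucose A than on glucose B, 6 of them by at least 2-fold, against 44.2% and 3.27% of all tested probe sets. The median log2 difference between the glucose arrays was 1.87. Between the galactose arrays 8 of the 9 were higher on galactose C, against 46.3% of all tested probe sets, with a median of 0.92. For JEN1 and CYB2, the lactate permease and lactate dehydrogenase genes, galactose C was the highest of the 4 arrays. Both, named here after their values were seen, were higher in galactose, by 1.30-fold and 1.19-fold, without passing. ADH2, the alcohol dehydrogenase gene of ethanol use, stood at 180 and 342 in galactose and at 2495 and 213 in glucose (2.94-fold lower in galactose, adjusted p = 0.765). ADY2, an acetate transporter gene, stood at 192 and 170 against 1209 and 153 (2.38-fold lower, adjusted p = 0.766). SUC2, the gene with an unadjusted p under 0.05, stood at 1212 and 1876 in galactose and at 3533 and 2579 in glucose (adjusted p = 0.510, limma). Only for SUC2 among the 9 did the galactose arrays lie wholly below the glucose arrays. Its other probe sets were 2.84-fold and 3.24-fold lower in galactose, also without passing (adjusted p = 0.533 and 0.579, limma). GUT1, GUT2 and STL1 were higher on glucose A than on glucose B by 1.87-fold, 1.28-fold and 1.56-fold, less than ADH2 (11.7-fold) and ADY2 (7.89-fold). GPD1 (1.25-fold) and GPD2 (1.09-fold) were also higher on glucose A, and GCY1 was nearly level (1.02-fold). DAK1, GPP1, GPP2 and FPS1 were not higher on glucose A. The array medians were 111.6 on glucose A and 115.7 on glucose B. Whether glucose repression had a part in the order was not tested. How much glucose was left in the cultures is not given in the sources used here.

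**Figure D5:**
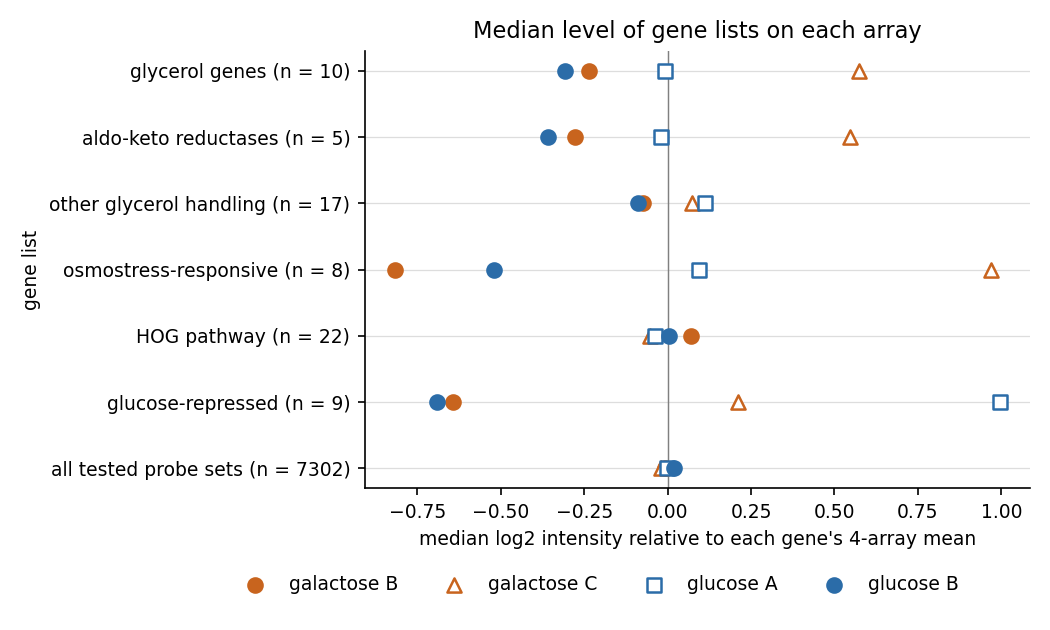
Median log2 intensity of each gene list on each of the 4 arrays, relative to each gene's mean over the arrays (n is the number of genes or probe sets tested). The glycerol genes stand at 0.57 on galactose C and at -0.31 on glucose B, the osmostress-responsive genes are highest on galactose C (0.97), the glucose-repressed genes are highest on glucose A (0.99), and the HOG pathway genes stay between -0.05 and 0.07.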

How the data were processed

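The authors deposited linear intensities, with 1 value for each probe set on each array. How they summarised and scaled them is not given in the sources used here. They were used without further scaling, since the array medians differed by a factor of 1.08. The 60 control probe sets were left out of 9335. Values under the 25th percentile (18.5) were set to it, log2 was taken, and the 1973 that never rose above it were not tested. The media were compared with limma 3.58.1 in R 4.3.3 (lmFit, eBayes with an intensity trend, 2 residual and 4.73 total degrees of freedom) and Benjamini-Hochberg adjustment over 7302 probe sets, without a replicate block. Steps were tested on simulated data. Gene symbols came from the platform annotation and matched the RefSeq table of assembly R64, whose gene order and strands gave the neighbouring genes, and no coordinates are printed. For lists, the brightest probe set stood for a gene. All glycerol genes are named, then from each list the genes that pass, otherwise the 2 with the largest difference above the floor on all arrays, and the 6 patterns most like GCY1. YPR1 is also named as part of a ratio. DAK2, TPI1, NDE2, FUR4, MTH1, AQY2, JEN1, CYB2, SUC2 and the neighbours RIO1, PFY1 and GPM2 were picked with their values known. The genes and lists were chosen with earlier results of these data known. Python 3.11.15, pandas 2.3.3 and matplotlib 3.10.9 drew the figures.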

Additional observations from a re-analysis of the deposited data

How the results depend on the processing

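No paired analysis was possible because the media have 1 letter in common. With 2 arrays per medium, 1 array can decide a value, and a p that misses the threshold does not show equal levels. GCY1 kept its direction in all 16 alternatives and lost its call in 11. Its log2 difference and adjusted p were 3.11 and 0.0524 after quantile normalization, 3.05 and 0.0518 with a common median, and 3.04 with 0.0595 for a floor at the 10th percentile, 0.247 with all 9275 probe sets tested, 0.118 among probe sets that name 1 gene, 0.106 with 1 probe set per gene and 0.0936 without Ty probe sets. In these 7 settings, 0 of the 10 genes were called, against 1. Over all probe sets, 58 were called higher and 3 lower. The higher count was 25 after quantile normalization, 32 with the lower floor, 4 with all tested, 5 among probe sets naming 1 gene, 5 with 1 per gene and 7 without Ty, and the lower count went to 0, 1 and 1 in the settings with all tested, naming 1 gene and 1 per gene. Without any 1 array both counts and the glycerol genes' count were 0, and log2 differences ran from 2.67 to 3.41 for GCY1, -0.034 to 0.76 for DAK1, -0.22 to 0.68 for GPD1, -0.57 to 0.74 for GPD2, -0.82 to 0.17 for GPP1, -0.22 to 0.68 for GUT1, -0.18 to 0.93 for GUT2, -0.57 to 1.29 for STL1 and -0.068 to 0.072 for FPS1. FPS1 also turned to -0.0068 after quantile normalization. The cause of these changes was not tested, apart from the fewer arrays or other sets of probe sets themselves. The other 9 genes passed in 0 of 144 values. The counts of genes higher on galactose C (8) and glucose A (6) became 8 and 6 after quantile normalization and 8 and 7 with a common median, both added after seeing the data. The count at least 2-fold above galactose B (3) became 2 and 4, and the glycerol genes' median log2 difference went from 0.77 to 0.69 and 0.89 between the galactose arrays and from 0.076 to 0.10 and 0.13 between the glucose arrays.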

Other observations

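The nearest protein-coding neighbours of the 10 glycerol genes in the RefSeq order were looked up, chosen by position alone, and 15 of 20 had a probe set of their own. Of these 15, 0 passed between the media (limma) and 1, RIO1, had an unadjusted p under 0.05, against 8.61% of all tested probe sets. The galactose arrays lay wholly above the glucose arrays for 4 and wholly below for 4, against 17% and 22.1%. RIO1, a protein kinase gene read away from GCY1 on its upstream side, stood at 601 and 464 in galactose and at 249 and 331 in glucose (1.84-fold, adjusted p = 0.525). PFY1, the profilin gene on the other side of GCY1, stood at 4222 and 3867 against 3185 and 5143 (adjusted p = 0.999). GPM2, next to GPD1, had the largest fold of the 15, at 578 and 1317 in galactose against 506 and 362 in glucose (2.04-fold, adjusted p = 0.612).

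Of 6 haploid mating type genes, the alpha cell genes MF(ALPHA)1, MF(ALPHA)2 and STE3 lay under the floor on all 4 arrays, while the a cell genes were dim. MFA1 stood from 76.1 to 92.8 on its brighter probe set and from 19.6 to 30.2 on the other, MFA2 stood from 21.6 to 26.4, and STE2 stood from 14.9 to 25.3, above the floor of 18.5 on 2 of the 4 arrays.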
